A study of Mus musculus with 4 samples.

Results

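CD8+ T cells from the lungs of IPF-LC mice were compared with and without CD4 depletion, using 2 of the 4 libraries of the series. The pair is defined by its labels, and earlier results of these data were known when it was chosen. It holds 1 library from mice given an antibody that depletes CD4+ cells and 1 from control mice given an isotype antibody. Both came from C57BL/6J mice of the same model, and the cells had been sorted from lung as CD3+CD8+ cells. The other 2 libraries carry the model label LC with the same 2 antibodies, and their values stand beside some results as a description. What IPF-LC and LC stand for is not spelled out in the labels, which give neither the age of the mice, the number of mice behind a library nor the time and dose of the antibody. Messenger RNA was read after amplification with a low-input kit. With 1 library per group there is no replicate error, so no test between the antibodies was possible and sizes are given with counting error only.

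CD4+ T cells shape CD8+ T cells in opposing ways. Helper cells license dendritic cells and supply IL-2 and IL-21, which sustain CD8+ T cell expansion and memory. Regulatory T cells, defined by the transcription factor FOXP3, restrain CD8+ T cells through CTLA-4, through uptake of IL-2 and through TGF-beta. An antibody to CD4 removes both kinds, and monocytes or dendritic cells that carry CD4 can be touched too.

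The isotype library held 15439173 counts and the depleted library 16217672, with 15321 and 15183 genes detected. Mitochondrially encoded transcripts took 1.74% and 1.82% of the counts. Levels are in CPM, counts scaled to a common library size with TMM factors, and the first value is always the isotype library. The log2 ratio is that of the depleted over the isotype library. Its 95% interval is an exact binomial one that covers counting error only: the reads had no molecular identifiers, so reads are not independent molecules, and the spread between mice is not in it. Among the 8433 genes that averaged 10 CPM or more over the 4 libraries, 344 (4.08%) were at least 2-fold higher after depletion and 508 (6.02%) were at least 2-fold lower. For 2.45% and 3.85% of the genes the whole counting interval lay beyond 2-fold. The share depended on the level: of the 1593 genes at 10 to 20 CPM, 7.28% were higher and 15.9% lower, whereas of the 2310 genes at 100 CPM or more, 2.16% were higher and 1.21% lower. Gene groups were summarised over the members that averaged 1 CPM or more. Over all 12231 such genes, 8.84% were at least 2-fold higher, 13.6% at least 2-fold lower and the median log2 ratio was -0.02, and each group below is to be read against those shares.

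**Figure D1:**
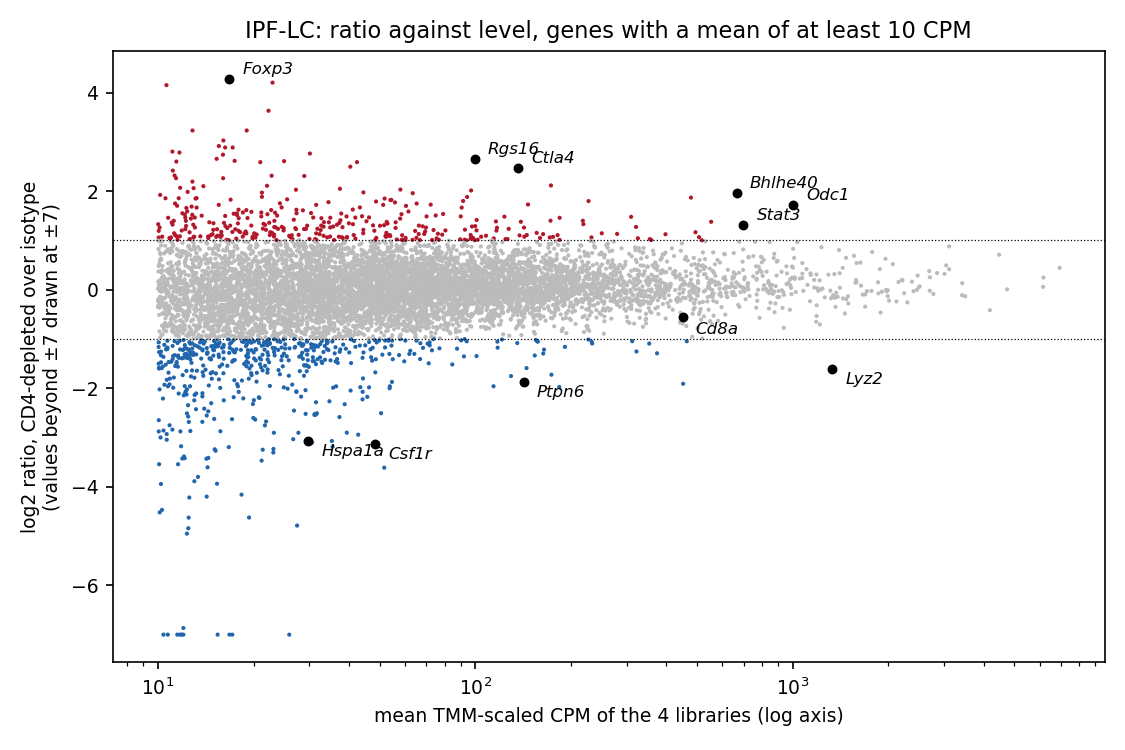
Each point is 1 of the 8433 genes averaging 10 CPM or more, with the mean level of the 4 libraries on a log axis and the log2 ratio of the depleted over the isotype IPF-LC library on the vertical axis; dotted lines mark 2-fold, red and blue points lie beyond them, and black points are named genes. The spread narrows with level: 7.28% and 15.9% of genes at 10 to 20 CPM lie above and below the lines, against 2.16% and 1.21% at 100 CPM or more.

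The position among all 4 libraries was examined after the ratios had been seen. Of the 344 genes at least 2-fold higher, the isotype IPF-LC library was the lowest of the 4 in 283 (82.3%) and the depleted IPF-LC library the highest in 260 (75.6%), with 207 in both sets. Over all 8433 genes these shares were 25.4% and 29.8%. Picking genes with a high ratio raises both shares by itself, so the shares of all genes are not a like baseline. Of the 508 genes at least 2-fold lower, the isotype library was the highest in 53.7% and the depleted library the lowest in 63%, against 25.5% and 26.3% of all genes. Picking genes with a low ratio raises these shares in the same way. How much of either difference the picking makes was not computed, so no excess is read from them.

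The genes that mark T cells of the CD8 lineage were present at high levels in both libraries, as the sort label says. All 19 genes of the CD8 T cell group passed 1 CPM, none was 2-fold apart, and their median log2 ratio was 0.03. Cd8a, the alpha chain of the CD8 coreceptor, stood at 518 and 353 CPM, a log2 ratio of -0.55 (-0.60 to -0.50). Cd8b1, the beta chain, stood at 972 and 654 CPM (-0.57, -0.61 to -0.54). The summed counts of Cd8a and Cd8b1 thus had a log2 ratio of -0.56 (-0.59 to -0.54), while Cd3d, Cd3e, Cd3g, Cd247, Trac, Trbc1 and Trbc2, the subunits of the T cell receptor complex, summed to 65252 and 63012 counts (-0.05, -0.06 to -0.03). Coreceptor transcripts were therefore lower relative to receptor transcripts in the depleted library. In LC, the ratios of those sums were 0.13 and 0.26. Fewer cells of a kind and less RNA per cell cannot be told apart in such bulk libraries, here or in any group below.

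Cd4, which encodes the depleted coreceptor, had 73 counts in the isotype library and 0 in the depleted library, a level at least 24.3-fold lower with a floor of 3 counts per library. Zbtb7b, the transcription factor that commits thymocytes to the CD4 lineage, was on the same side, with 28 and 3 counts (-3.02, -5.58 to -1.52). Both genes were low even with isotype antibody, at 4.67 and 1.79 CPM. In LC neither was at least 2-fold lower. Of the 14 measured helper T cell genes, both included, 8 were at least 2-fold higher there and 0 lower.

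Transcripts of cells outside the gate were present in the isotype library and lower in the depleted one. Of 24 macrophage and monocyte markers, 19 were at least 2-fold lower and 1 higher, with a median of -1.56, and their summed level was 4818.5 CPM with isotype antibody and 1932.5 CPM after depletion. Lyz2, a lysozyme of phagocytes, stood at 2409 and 788 CPM (-1.61). Csf1r, the receptor for macrophage growth factor, stood at 40.1 and 4.56 CPM (-3.13). Fcgr1, Marco and Siglecf were at 0 after depletion, Marco in both libraries. Ccr2, the 1 higher member, is also a receptor of effector T cells. Among neutrophil markers 7 of 10 were lower and 2, Mmp9 and Il1r2, higher (sums 124.58 and 43.437 CPM), among dendritic cell markers 7 of 11 lower and 1, Xcr1, higher (2909.6 and 2249.9 CPM, most of it Ccr7, which naive T cells also carry), and among B and plasma cell markers 4 of 8 lower and 1, Jchain, higher (514.11 and 320.04 CPM). Endothelial markers had 11 of 12 lower (376.92 and 187.73 CPM), fibroblast markers 10 of 11 (187.27 and 54.729 CPM), lung epithelial markers 4 of 7 (125.54 and 95.92 CPM) and platelet and red cell markers 4 of 4. Kdr, Emcn, Dcn, Lum and Tcf21 were at 0 after depletion. In LC the macrophage and monocyte sum was 5462.3 CPM with isotype antibody and 385.63 CPM after depletion, the fibroblast sum 598.5 and 67.238 CPM and the B and plasma cell sum 413.04 and 361.97 CPM. What part these transcripts have in the other results was not tested, and their values are repeated beside the groups that such cells can carry.

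**Figure D2:**
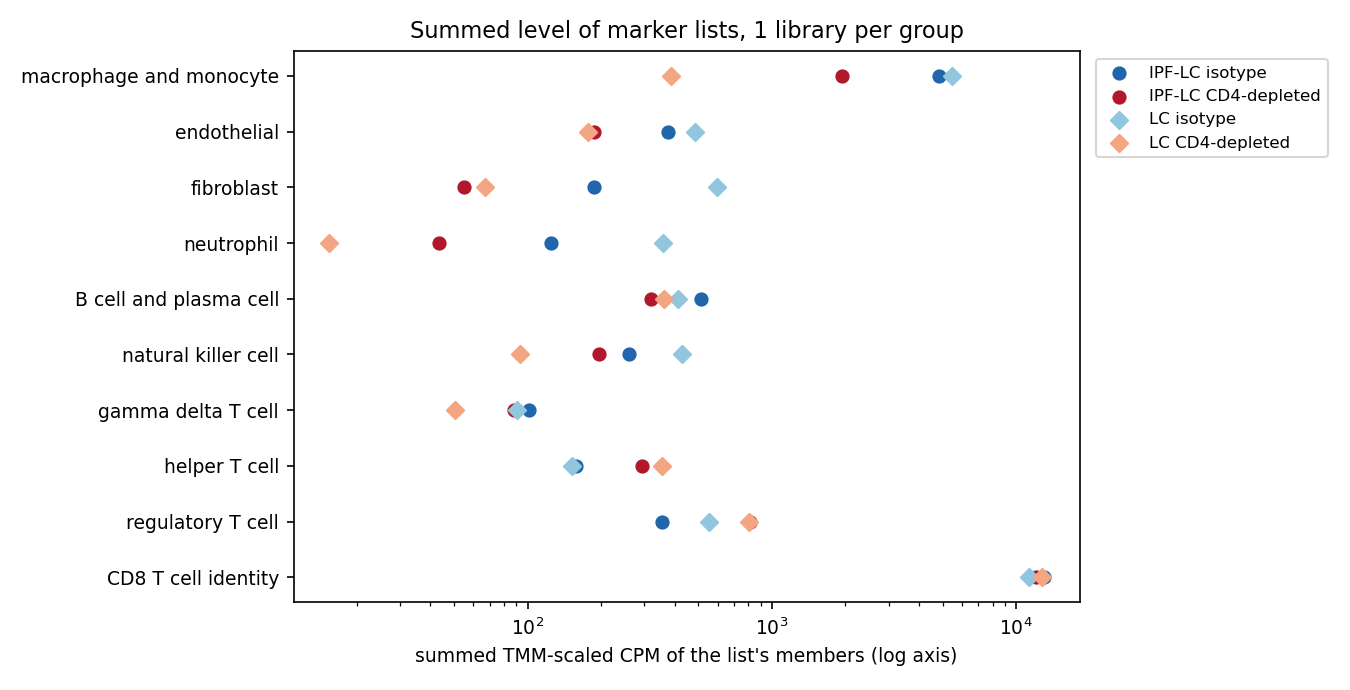
Summed level of each marker group in each of the 4 libraries, in TMM-scaled CPM on a log axis, 1 point per library. In IPF-LC the macrophage and monocyte sum was 4818.5 CPM with isotype antibody and 1932.5 CPM after depletion, whereas the regulatory T cell sum was higher after depletion, at 813.62 against 354.47 CPM.

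Genes of regulatory T cells were higher although Cd4 itself was at 0. Of 17 measured members, 11 were at least 2-fold higher and 1 was lower, with a median log2 ratio of 1.61, or 0.96 from the deposited TPM. Foxp3, the lineage factor, had 23 counts with isotype antibody and 456 after depletion. Beyond it, the members with the clearest ratios were surface receptors. Tnfrsf4, the costimulatory receptor OX40, stood at 2.24 and 28.1 CPM (3.63, 3.15 to 4.19). Il1rl1, the receptor for the alarmin IL-33, stood at 0.32 and 7.7 CPM (4.46, 3.33 to 6.24). Lrrc32, which encodes GARP, the protein that holds latent TGF-beta on the surface of regulatory T cells, stood at 1.09 and 14.1 CPM (3.65, 2.98 to 4.50). Itgb8, the integrin chain that frees active TGF-beta, had 0 and 42 counts, at least 14-fold higher by the floor. It was at 0 with isotype antibody in both models and so passed the 1 CPM minimum only through the depleted libraries. It is counted as higher here, in the TGF-beta pathway and among the integrins. Ebi3, a subunit of IL-35 and IL-27, had 0 and 30 counts, at least 10-fold higher. Areg, the growth factor amphiregulin that regulatory T cells of injured lung secrete, stood at 5.63 and 11.7 CPM (1.05, 0.68 to 1.44). Against these, Izumo1r, the folate receptor 4 of regulatory T cells, was lower at 12.2 and 4.04 CPM (-1.59, -2.03 to -1.18), and Gpr83 had a ratio of -0.80. The members thus did not all lie on 1 side. In LC, 5 of the 17 were higher and 2 lower (median 0.41): Foxp3 had a ratio of 3.06 and Itgb8 stood at 0 and 2.55 CPM, but Lrrc32 had one of -1.74, Ikzf4 0.02 and Tnfrsf4 0.30.

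Of 14 measured helper T cell genes 7 were at least 2-fold higher and 2, Cd4 and Zbtb7b, lower (median 0.92). Il17f and Il17a, 2 cytokines of type 17 T cells, stood at 2.5 and 23.7 CPM (3.23, 2.77 to 3.76) and at 2.69 and 13.3 CPM (2.30, 1.83 to 2.83). Ccr6, the chemokine receptor of such cells, had 9 and 100 counts (3.41, 2.50 to 4.65), and Maf, a transcription factor shared by type 17, follicular and regulatory cells, stood at 5.05 and 31.1 CPM (2.61, 2.28 to 2.98). Il23r, the receptor chain for IL-23, had a ratio of -0.16 (-0.70 to 0.37), no difference detectable at this depth. In the LC pair Il17f had a ratio of 4.70, and Il17a had 0 counts with isotype antibody and 147 after depletion. Among the type 2 members Il4, Il5 and Il13 were at 0 in both libraries and Gata3, the type 2 lineage factor, had a ratio of 0.67. Gamma delta T cells also make IL-17 and can carry CD8. Of 9 of their genes 4 were at least 2-fold lower and 1 higher, 5 were below 0 and 4 above (sums 101.67 and 87.963 CPM), and the median was -0.44, or 0.11 over the 4 members averaging 10 CPM or more. Trdc, the delta constant region, stood at 31.2 and 23 CPM (-0.44, -0.64 to -0.24) and Sox13 at 3.58 CPM and 0. Which cells the Il17a and Il17f transcripts came from was not tested.

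**Figure D3:**
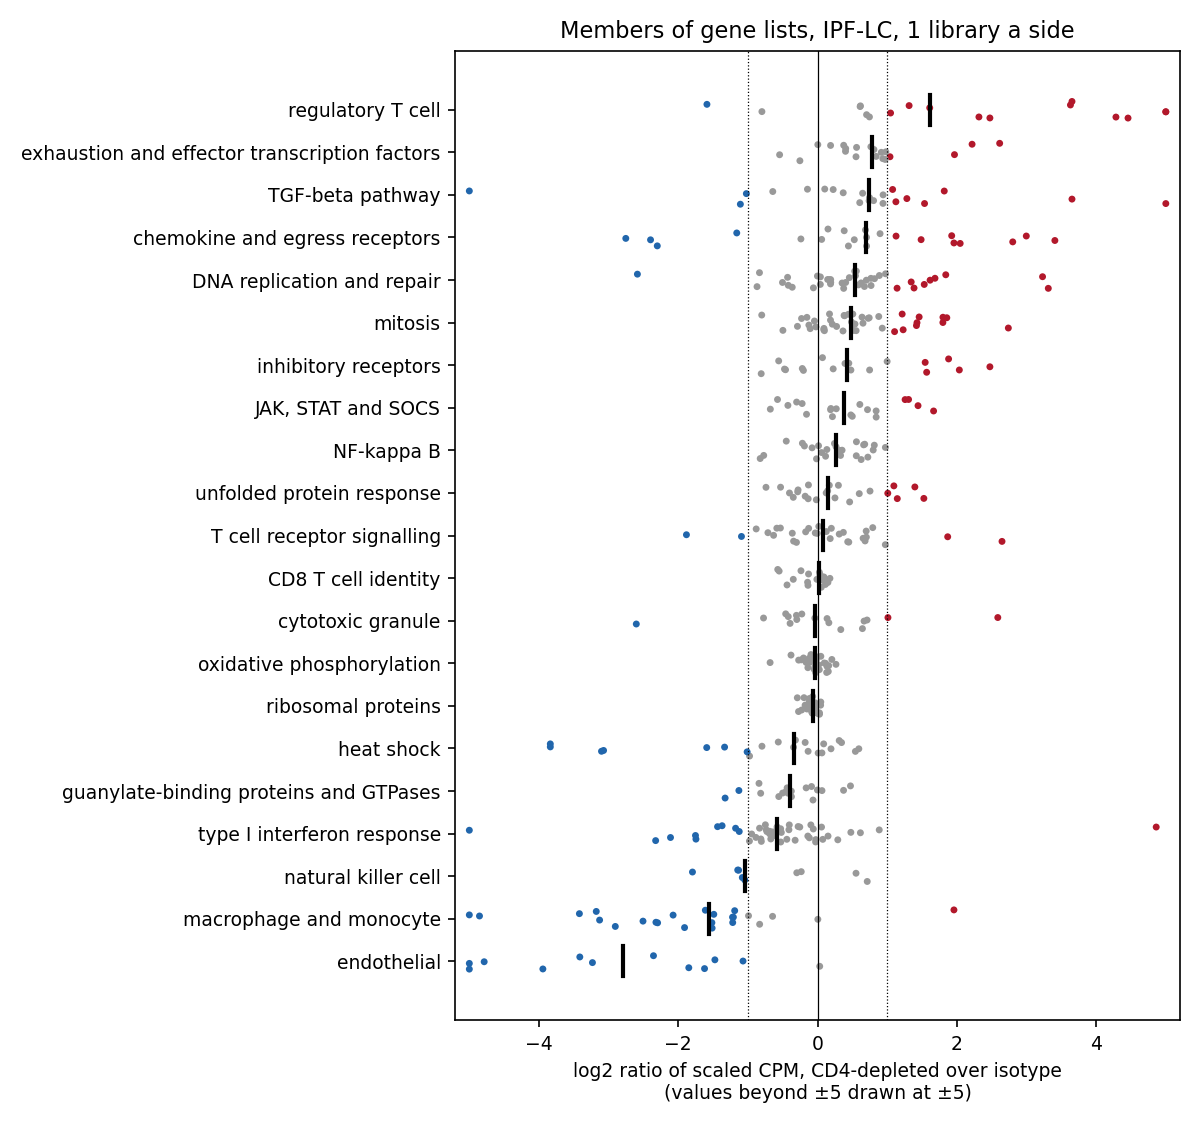
Each point is 1 gene of the named group averaging 1 CPM or more, placed by its log2 ratio of the depleted over the isotype IPF-LC library; black bars are group medians, dotted lines mark 2-fold, and values beyond 5 are drawn at 5. The regulatory T cell group has the highest median shown (1.61), oxidative phosphorylation and ribosomal protein genes lie within the 2-fold lines, and endothelial markers have the lowest median of the groups drawn (-2.79).

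Transcription factors of effector and exhausted CD8+ T cells were mostly above 0. Of 20 measured factors 18 had a ratio above 0, 4 were at least 2-fold higher, namely Bhlhe40, Tox, Tox2 and Maf, and none was 2-fold lower (median 0.79, against -0.12 in LC). Bhlhe40, which lets T cells keep up mitochondrial fitness and cytokine output in tissue, stood at 236 and 922 CPM (1.97, 1.91 to 2.02). Tox, the factor that fixes the exhausted state, stood at 52.7 and 108 CPM (1.04, 0.92 to 1.16), and its relative Tox2 at 2.82 and 13.2 CPM (2.22, 1.76 to 2.74). Several more came close to 2-fold together: Tbx21 (T-bet) at 43.4 and 81.9 CPM, Prdm1 (Blimp-1) at 11.8 and 23.2, Ahr at 30.5 and 60.2, Rbpj at 74.7 and 143, Irf4 at 15.1 and 27.1 and Batf at 50.3 and 88.2. In LC, the same genes had ratios between -0.86 for Tbx21 and 0.28 for Batf. The NR4A factors, which respond to receptor stimulation and take part in exhaustion, differed little: Nr4a1 had a ratio of -0.25, Nr4a3 0.00 and Nr4a2 0.40. The isotype IPF-LC library was the lowest of the 4 in 13 of these 20 factors (65%). Over all 8433 genes averaging 10 CPM or more that share was 25.4%, and none was computed at the 1 CPM used for groups.

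Inhibitory receptors split by member. Of 18, 5 were at least 2-fold higher and none was 2-fold lower (median 0.42). They were Ctla4, Pdcd1, Lag3, Tigit and Entpd1. Regulatory T cells also carry Ctla4, Tigit and Entpd1, and their marker sum was 354.47 and 813.62 CPM, with Foxp3 at 23 and 456 counts; its part in the result was not tested. Besides Ctla4 at 39.4 and 219 CPM and Pdcd1 (PD-1) at 33.2 and 122 CPM, Lag3, a receptor for MHC class II, stood at 1.79 and 7.44 CPM (2.04, 1.45 to 2.71). Tigit, which competes with Cd226 for the same ligands, stood at 19.1 and 55.9 CPM (1.54, 1.36 to 1.74), and Cd226, the activating partner, was lower at 61.3 and 23 CPM (-1.41, -1.59 to -1.24). The balance between those 2 receptors thus differed in both terms. Cd274, which encodes PD-L1, stood at 74.5 and 149 CPM (1.00), just short of 2-fold. Havcr2 (TIM-3) and Cd160 lay on the other side of 0, at -0.20 and -0.81, and Cd96 and Vsir at -0.22 and -0.46. In LC the median was -0.51, with Lag3 at -1.07 and Tigit at 0.02. Of the 18 costimulatory receptors 3 were higher and 3 lower: Tnfrsf9 (4-1BB), induced on activated CD8+ T cells, stood at 14.2 and 51.3 CPM (1.85), Cd28 at 233 and 402 (0.78), and Cd81 had a ratio of -1.67.

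**Figure D4:**
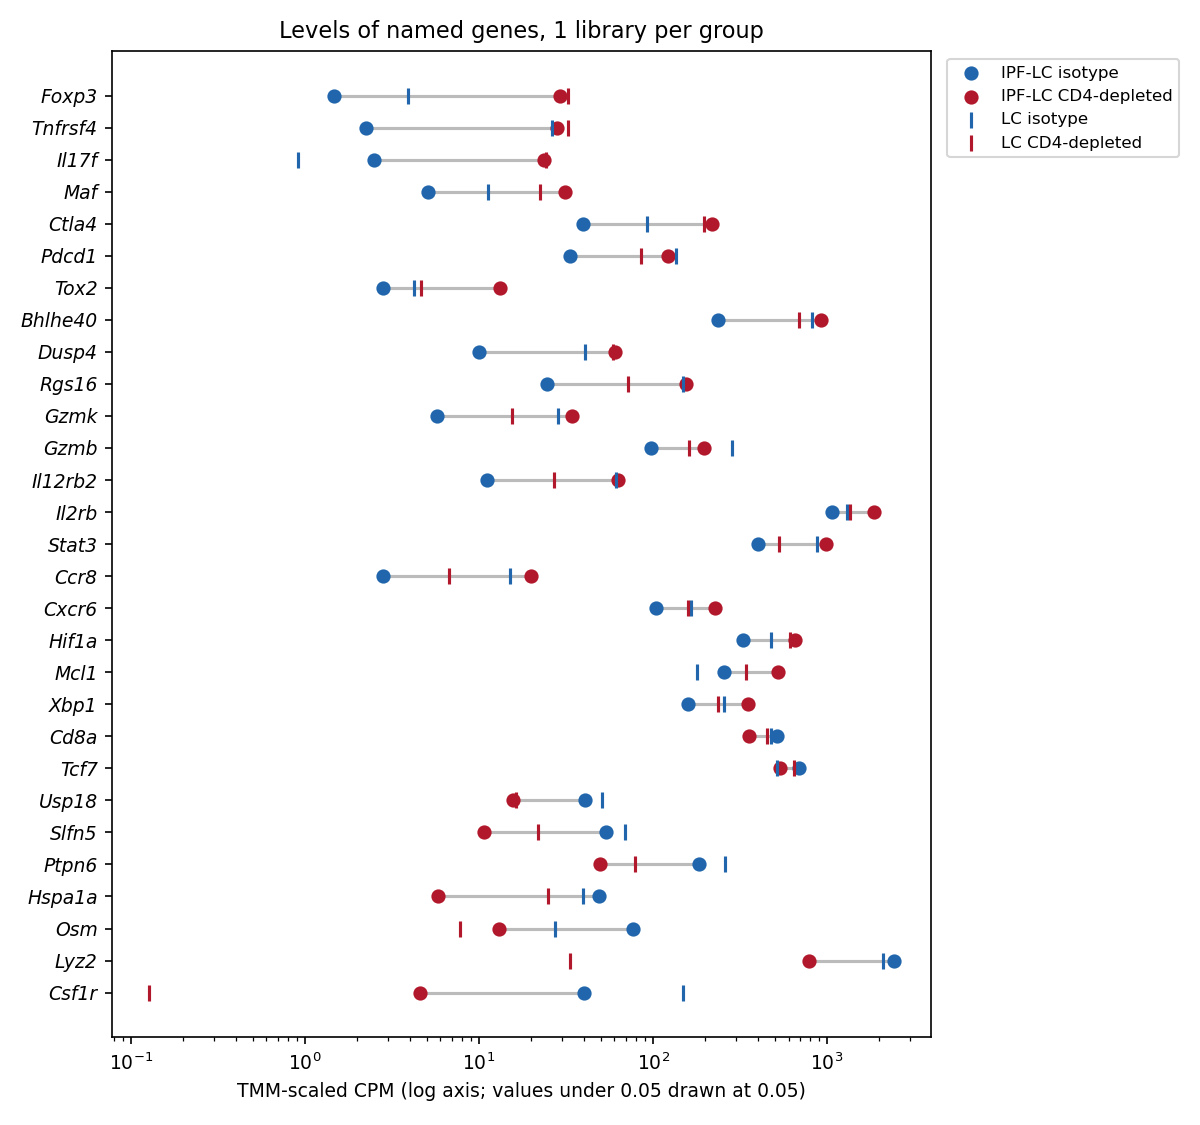
Level of named genes in each library, in TMM-scaled CPM on a log axis; circles joined by a line are the isotype (blue) and depleted (red) IPF-LC libraries, and ticks are the LC libraries in the same colours. For Pdcd1, Gzmb and Tnfrsf4 the isotype IPF-LC circle lies left of the other 3 libraries, while for Slfn5, Hspa1a and Ptpn6 the depleted circle does.

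Several genes of the IL-2 and STAT3 signalling routes were higher. The JAK, STAT and SOCS group had 4 of 20 members at least 2-fold higher and none lower (median 0.37, 0.14 in LC). Jak2, a kinase that serves the IL-12 and IL-23 receptors, stood at 46.4 and 147 CPM (1.67, 1.55 to 1.79). Stat5a, the mediator of IL-2 signals, stood at 68.3 and 163 CPM (1.26, 1.15 to 1.36), its twin Stat5b at 298 and 534 (0.84), and Cish, a feedback inhibitor that STAT5 induces, at 35.3 and 95.9 (1.44, 1.30 to 1.59). Stat3, the mediator of IL-6, IL-10 and IL-21 signals, stood at 400 and 989 CPM (1.31, 1.26 to 1.35), with a ratio of -0.72 in LC. Tyk2, a kinase of the interferon and IL-12 receptors, was on the other side of 0 (-0.68).

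Receptors for the cytokines went both ways, with 7 of 34 higher, 5 lower and a median of -0.01. Il2rb, the beta chain that binds IL-2 and IL-15, stood at 1072 and 1871 CPM (0.80, 0.78 to 0.83), and Il2ra, the high-affinity chain of activated and regulatory T cells, at 5.5 and 13.7 (1.31, 0.95 to 1.70). Il15ra, which presents IL-15 in trans and is carried by macrophages too, was lower at 11.3 and 2.44 CPM (-2.19, -2.75 to -1.69). Il12rb2, the signalling chain of the IL-12 receptor, stood at 11.1 and 62.6 CPM (2.50, 2.26 to 2.74), and Il10ra, the binding chain for IL-10, at 16.6 and 57 (1.78, 1.58 to 1.98). The IL-6 receptor chains were on the lower side, Il6ra at 59.4 and 31.2 CPM (-0.93) and Il6st at -0.80. Il7r (-0.11) and Il2rg (-0.10), the chains that carry homeostatic signals, had ratios close to 0.

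In the TGF-beta pathway, 7 of 22 genes were higher and 3 lower (median 0.74, 0.18 in LC). Smad3, the signal transducer, stood at 49.8 and 121 CPM (1.28, 1.16 to 1.40). The targets that limit the pathway were higher too: Skil at 278 and 606 CPM (1.12, 1.07 to 1.18), Smurf2 at 8.83 and 18.7 (1.08) and Smad7 at 48.4 and 141. Furin, the protease that cleaves pro-TGF-beta, stood at 21.8 and 77.1 CPM (1.82). Tgfbr1, the type I receptor, was lower at 51.1 and 25.2 CPM (-1.02, -1.20 to -0.85), while Tgfbr2, the type II receptor, had a ratio of 0.61. Bambi, a decoy receptor, was lower at 38.8 and 18 CPM (-1.11, -1.32 to -0.90), and Ltbp1, a matrix protein that stores latent TGF-beta and is made by stromal cells, had 98 counts and 0. The ligand Tgfb1 had a ratio of -0.15. Lrrc32 and Itgb8, described above among regulatory T cell genes, are 2 of the 7 higher members.

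Across the T cell receptor signalling group 2 of 30 genes, Rgs1 and Rgs16, were higher and 2, Ptpn6 and Rasgrp1, lower (median 0.07). Rgs16, which damps chemokine receptor signals, stood at 24.6 and 154 CPM (2.65, 2.49 to 2.81) and Rgs1 of tissue-resident T cells at 217 and 791 (1.87, 1.81 to 1.92). Dusp4, a phosphatase for MAP kinases that is not counted in this group, stood at 9.98 and 60.2 CPM (2.59, 2.35 to 2.85). Sh2d2a, an adaptor of the kinase LCK, stood at 462 and 908 CPM (0.97, 0.93 to 1.01). Ptpn6, which encodes SHP-1, the phosphatase that damps receptor signals, was lower at 183 and 49.5 CPM (-1.88), and also in LC (-1.70). Ptpn6 is also expressed in macrophages. The macrophage and monocyte marker sum was 4818.5 and 1932.5 CPM in IPF-LC and 5462.3 and 385.63 CPM in LC. The part of such cells in the Ptpn6 ratios was not tested. Rasgrp1, the activator of RAS, was lower at 348 and 163 CPM (-1.09, -1.16 to -1.02), with -0.22 in LC. Of 24 immediate early genes 2 were higher and 3 lower (median -0.01): Fos stood at 392 and 190 CPM (-1.05, -1.11 to -0.98), Egr2 at 52.6 and 22.9 (-1.20), Ier3 at 55.2 and 6.54 (-3.07), and Junb had a ratio of -0.04. NF-kappa B genes were all within 2-fold, with 0 of 25 beyond it and 18 above 0 (median 0.27). Tnip1 (0.97), Relb (0.80) and Nfkb1 (0.72) were among the highest of them.

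Survival genes of the BCL2 family had 5 of 20 members higher and 3 lower (median 0.28). On the protective side, Mcl1, an inhibitor of cell death that T cells need, stood at 254 and 524 CPM (1.04, 0.99 to 1.10), and Bcl2a1d at 27.4 and 71.7 (1.39). Bcl2a1a, Bcl2a1b and Bcl2a1d are near-identical copies that can share reads, and their summed counts of 1538 and 2760 gave a ratio of 0.85 (0.76 to 0.94). On the opposing side, Pmaip1 (NOXA), which neutralises MCL1, stood at 64.1 and 147 CPM (1.20, 1.09 to 1.31). Bak1, a pore former of the mitochondrial membrane, had a ratio of 1.68. Bmf and Bid, which also promote death, were lower, at -2.08 and -1.08, as was the single copy Bcl2a1a at -2.79, and Bcl2l11 (BIM) had a ratio of -0.04. Inducers of cell death were therefore found among both the higher and the lower genes.

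Of 23 genes of the unfolded protein response 5 were at least 2-fold higher and none lower (median 0.14). These 5 were the sensors Ern1 (IRE1) at 8.45 and 24.4 CPM (1.53, 1.24 to 1.83), Eif2ak3 (PERK) at 78.5 and 168 (1.10, 1.00 to 1.19) and Atf6 at 17.3 and 34.8 (1.01, 0.80 to 1.23), and the transcription factors Xbp1 at 159 and 352 (1.14, 1.08 to 1.21) and Ddit3 (CHOP) at 12.3 and 32.4 (1.40, 1.16 to 1.65). Hspa5 (BiP), the main chaperone target, stood at 2498 and 2969 CPM (0.25), Hsp90b1 had a ratio of -0.35 and Herpud1 one of -0.74. In LC, Ern1 stood at 15.3 and 0.51 CPM (-4.82) and Xbp1 had a ratio of -0.11.

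Cytosolic heat shock genes were lower in part: 7 of 22 were at least 2-fold lower and none higher (median -0.33). Hspa1a and Hspa1b, 2 near-identical genes for inducible HSP70 that can share reads, summed to 1559 counts with isotype antibody and 182 after depletion (-3.09, -3.32 to -2.87), against -0.58 in LC. Hsph1, an HSP110 cochaperone, stood at 210 and 69.6 CPM (-1.59, -1.69 to -1.49), Chordc1 at 207 and 82 (-1.34) and Stip1 at 298 and 148 (-1.01). Constitutive Hspa8 had a ratio of -0.14 and Dnajb1, also heat inducible, one of -0.18. Hspa1a, Hspa1b, Fos and Jun also belong to the genes known to respond to tissue dissociation and sorting. In the RNA quality group of 17 genes the 3 lower members were Hspa1a, Hspa1b and Fos. None was 2-fold higher, but 12 were above 0 and 5 below. The depleted library was the highest of the 4 in 12 of the 17 (70.6%), against 29.8% of genes averaging 10 CPM or more. Malat1 stood at 664 and 1298 CPM (0.97, 0.93 to 1.00) and Neat1 at 100 and 150 (0.58), with -0.49 and -1.17 in LC. The part of sample handling or RNA quality was not tested.

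Of 31 genes of glycolysis, hypoxia and nutrient transport, 4 were higher and none lower (median 0.17), and these were regulators and carriers rather than glycolytic enzymes. Hif1a, the hypoxia factor, stood at 327 and 656 CPM (1.00, 0.95 to 1.05), and Egln3, the prolyl hydroxylase that it induces, at 11.1 and 23.8 (1.09). Slc2a1 (GLUT1), the glucose carrier of activated T cells, stood at 34.6 and 74 CPM (1.10, 0.95 to 1.25), and Slc3a2 (CD98), the heavy chain of amino acid carriers, at 194 and 468 (1.27, 1.21 to 1.34). Gapdh (0.27), Pkm (0.01), Ldha (0.24) and Aldoa (-0.49) were within 2-fold. All 34 measured genes of oxidative phosphorylation were within 2-fold (median -0.03), as were all 28 ribosomal protein genes (median -0.07). Lipid genes had 1 of 32 higher and 6 lower (median -0.09). Among the lower ones Cd36, at 72.5 and 18.1 CPM, Lpl (-1.87) and Pparg (-2.59) are abundant in alveolar macrophages, while Cpt2 (-1.25) and Idi1 (-1.15) serve fatty acid oxidation and sterol synthesis in most cells.

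Of 22 chemokine and egress receptors, 8 were at least 2-fold higher and 4 lower (median 0.70, 0.07 in LC). Those higher included the receptors of inflamed tissue Cxcr3 at 44.8 and 126 CPM (1.49, 1.36 to 1.61), Ccr2 at 15.5 and 60.2 (1.96, 1.75 to 2.17) and Cxcr6 at 104 and 227 (1.13). Ccr8 and Ccr4, found on type 2, skin-homing and regulatory T cells, stood at 2.82 and 19.8 CPM (2.80, 2.36 to 3.31) and at 9.66 and 40 CPM (2.05, 1.79 to 2.32). Cx3cr1, a marker of terminal effector cells, stood at 2.24 and 8.6 CPM (1.93). Ccr9, the gut-homing receptor, was lower at 68.6 and 30.7 CPM (-1.16). Ccr1, which monocytes and neutrophils carry, was lower too at 21.8 and 3.21 CPM (-2.75). For exit from tissue, S1pr1 stood at 1251 and 2015 CPM (0.69, 0.66 to 0.71) and S1pr5 at 5.5 and 1.09 (-2.30), and Ccr7 had a ratio of -0.24.

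Integrins gave a mixed picture, with 2 of 23 higher and 5 lower (median -0.13). Itgb1 stood at 479 and 843 CPM (0.82, 0.77 to 0.86) and Itgb3 at 33.7 and 66 (0.97), both short of 2-fold. Itga1, the collagen-binding chain of tissue-resident cells, was lower at 23.2 and 8.66 CPM (-1.42, -1.72 to -1.13), with -4.16 in LC. Itgam and Itgax, markers of macrophages and dendritic cells, had ratios of -1.51 and -1.51, and of -5.36 and -2.22 in LC. The macrophage and monocyte marker sum was 4818.5 and 1932.5 CPM, and its part in the integrin ratios was not tested. Itgae (CD103), which binds epithelium, had a ratio of -0.31 and in LC one of 1.19. Naive and memory genes did not move as a block: none of 20 was 2-fold higher, 2 were lower and the median was 0.13. Klf3 stood at 652 and 315 CPM (-1.05), while Foxo1, which sustains memory, stood at 216 and 424 (0.97, 0.91 to 1.03) and Satb1 at 794 and 1412 (0.83). Tcf7 (-0.35) was below 0, and Klf2 (0.57) and Lef1 (0.07) above it.

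Cytotoxic granule genes had 2 of 17 higher and 1 lower (median -0.04, -0.32 in LC). Gzmk, the granzyme of tissue effector memory cells, stood at 5.69 and 34.4 CPM (2.59, 2.27 to 2.93), and Gzmb at 97.3 and 196 (1.01, 0.92 to 1.10). Gzma (-0.30), Prf1 (-0.30) and Nkg7 (-0.23) were below 0, so the granule genes differed in sign among themselves. Gzmc had 33 and 5 counts (-2.60, -4.43 to -1.35). Killer lectin-like receptors had 1 of 13 higher, Klrg1 at 4.73 and 22.8 CPM (2.26), and 3 lower. The Ly49 genes Klra1, Klra3, Klra4, Klra6, Klra7, Klra8 and Klra9, a family whose copies can share reads, summed to 761 and 478 counts (-0.67, -0.83 to -0.50). Natural killer cell markers had 5 of 9 lower and none higher (sums 259.45 and 196.84 CPM), and their defining member Ncr1 was at 0 after depletion.

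Among cytokines and death ligands 3 of 15 were higher and 4 lower (median -0.59). Fasl, the death ligand of cytotoxic cells, stood at 60.3 and 161 CPM (1.41, 1.31 to 1.52) and Tnfsf11 (RANKL) at 14.4 and 31.3 (1.12). Osm, a cytokine of the IL-6 family, was lower at 76.4 and 13.1 CPM (-2.54, -2.77 to -2.33), as were Tnfsf10 (TRAIL) at 14.1 and 3.34 (-2.07) and Tnf at 9.21 and 3.02 (-1.60). Osm and Tnf are products of macrophages too. Ifng had a ratio of -0.09. Chemokine ligands had 8 of 14 members lower and 1 higher (median -1.09). The lower ones, Ccl6 (-1.73), Ccl9 (-1.98), Cxcl2 (-1.18) and Ccl2 (-2.51) among them, are mainly products of myeloid cells, whose marker sum was 4818.5 and 1932.5 CPM. The chemokines that CD8+ T cells make differed in sign: Ccl5 stood at 647 and 1269 CPM (0.97, 0.94 to 1.01) and Ccl4 at 24.6 and 53.8 (1.13, 0.95 to 1.31), while Xcl1 and Ccl3 had ratios of -0.46 and -0.85. In LC, Ccl5 had one of -0.84.

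Most genes of the type I interferon response lay below 0. Among 48 measured genes 9 were at least 2-fold lower and 1, Ifi44, higher, 40 were below 0, and the median was -0.58 (-0.87 in LC, where 22 were lower). Macrophages express many of these genes, and the macrophage and monocyte marker sums were 4818.5 and 1932.5 CPM in IPF-LC and 5462.3 and 385.63 CPM in LC; their part in the result was not tested. The interferon-stimulated response element, the site that the interferon-activated complex ISGF3 binds, was searched as GAAA, any 2 bases and GAAA again, on both strands of promoters taken from RefSeq on build GRCm38.p6, from 250 bases before to 50 after each start, with overlapping matches counted. Of the 38 interferon genes found there 22 (57.9%) held it, against 3.99% of 27025 genes. Promoter windows of 3 lower genes that hold it are shown 5′ to 3′ on the gene's own strand, from up to 60 bases before the match, with the match in capitals. They are Slfn5 at chr11:82951887-82951976 on the plus strand, Oas1a at chr5:120907510-120907605 on the minus strand and Ifi208 at chr1:173673547-173673636 on the plus strand.
Slfn5: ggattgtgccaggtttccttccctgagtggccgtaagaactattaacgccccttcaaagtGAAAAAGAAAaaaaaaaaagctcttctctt
Oas1a: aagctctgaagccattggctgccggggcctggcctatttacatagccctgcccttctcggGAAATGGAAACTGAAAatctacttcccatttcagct
Ifi208: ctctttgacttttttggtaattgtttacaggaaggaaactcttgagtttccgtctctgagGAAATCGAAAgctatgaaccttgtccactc
Slfn5, a member of the Schlafen family, stood at 53.5 and 10.7 CPM (-2.32, -2.58 to -2.09), and its match begins 155 bases before the start. Oas1a, which makes the second messenger that switches on RNase L, stood at 23 and 8.47 CPM (-1.44, -1.74 to -1.15), with overlapping matches of which the first begins 20 bases before the start. Ifi208, a nucleic acid sensor gene of the PYHIN family, stood at 156 and 69 CPM (-1.18), with its match 58 bases before the start. Lower genes without a match in this window were Cmpk2 at 36 and 10.7 CPM (-1.75, -2.01 to -1.50) and Oasl2 at 31.8 and 14.6 (-1.12). Measured genes with the element had a median of -0.53 (21 genes, 3 lower) and those without it one of -0.69 (16 genes, 4 lower and 1 higher).

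Not all interferon genes took part. Mx1 stood at 5.44 and 10.1 CPM (0.89, 0.50 to 1.29), and Irf7, the factor that amplifies the response, at 159 and 156 (-0.03). Usp18, which shuts off the receptor, stood at 40.4 and 15.6 CPM (-1.37, -1.59 to -1.16). The interferon-induced transmembrane genes split: Ifitm3, abundant in many lung cells, stood at 24.8 and 5.07 CPM (-2.28), whereas Ifitm1 had 8 and 150 counts (4.15, 3.22 to 5.47). Among the guanylate-binding proteins and GTPases, which respond chiefly to interferon gamma, 2 of 18 were lower, none was higher and 15 were below 0 (median -0.40). The 2 lower genes were Gbp8 at 90.5 and 36.1 CPM (-1.33, -1.47 to -1.19) and Irgm2 at 72.6 and 33.2 (-1.13). MHC genes separated by class. Of 21 genes 5 were lower, namely the class II pathway genes H2-Ab1 (-1.35), H2-Aa (-1.03), H2-Eb1 (-1.54), H2-DMb1 (-1.69) and Cd74 (-1.25), which antigen-presenting cells express. The class I genes H2-K1 (-0.00), H2-D1 (0.25) and B2m (-0.09) were within 2-fold. The macrophage and monocyte marker sum was 4818.5 and 1932.5 CPM, and its part in the class II ratios was not tested. The dendritic cell markers given above include H2-Aa, H2-Ab1, H2-Eb1 and Cd74 themselves.

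Genes of DNA replication and mitosis were higher in part. Of 41 replication and repair genes 9 were at least 2-fold higher and 1 lower, 32 were above 0, and the median was 0.53 (0.55 in LC). E2F sites, the promoter elements through which the cell cycle switches on replication genes, were searched as TTTCCCGC and TTTGGCGC on both strands. Of 33 replication genes found in the RefSeq promoters 12 (36.4%) held one, against 1.8% of all genes. Windows of 3 higher genes are shown in the same way; in each the match reads GCGGGAAA, the reverse complement of the first motif. They are Cdc6 at chr11:98907953-98908040 on the plus strand, Pclaf at chr9:65890258-65890342 on the plus strand and Rfc3 at chr5:151651189-151651268 on the minus strand.
Cdc6: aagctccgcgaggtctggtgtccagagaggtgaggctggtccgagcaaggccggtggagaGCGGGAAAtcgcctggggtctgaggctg
Pclaf: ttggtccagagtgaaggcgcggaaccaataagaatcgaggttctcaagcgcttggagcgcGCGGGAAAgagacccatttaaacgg
Rfc3: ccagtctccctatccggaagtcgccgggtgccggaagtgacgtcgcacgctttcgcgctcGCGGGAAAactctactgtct
Cdc6, which loads the replicative helicase, stood at 5.5 and 17.8 CPM (1.69, 1.34 to 2.06). Pclaf, a partner of the sliding clamp PCNA, stood at 18.6 and 53.7 CPM (1.53), and Rfc3, a subunit of the clamp loader, at 10.5 and 26.7 (1.34). Of the higher genes without a match there, E2f1, itself an E2F factor, stood at 3.33 and 12 CPM (1.84, 1.40 to 2.32). The 12 measured genes with a site had a median of 0.16 (3 higher and 1 lower) and the 21 without one a median of 0.53 (4 higher).

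The replicative helicase genes Mcm2 (0.04), Mcm3 (0.14), Mcm4 (0.19), Mcm6 (0.17) and Mcm7 (-0.06) were close to 0. Mcm5 stood at 65.8 and 96.8 CPM (0.56, 0.44 to 0.67). Brca1, of homologous recombination, had 33 and 313 counts (3.23, 2.73 to 3.81) and Fancd2, of crosslink repair, 5 and 54 (3.31, 2.13 to 5.12), while Brca2 had 123 and 20 (-2.59, -3.38 to -1.93). In the LC pair, Brca1 and Brca2 had ratios of 0.56 and 1.09. Of 41 mitosis genes 10 were higher and none lower (median 0.49, 0.94 in LC). Kif4, a chromosome motor, stood at 3.52 and 23.7 CPM (2.74, 2.34 to 3.19), Bub1, of the spindle checkpoint, at 3.65 and 13.3 (1.86) and Plk1, a mitotic kinase, at 3.39 and 9.17 (1.43). Top2a had a ratio of 0.27 and Mki67 one of 0.73. The isotype IPF-LC library was the lowest of the 4 in 31 of the 41 replication genes (75.6%) and in 28 of the 41 mitosis genes (68.3%). The depleted library was the highest in 8 (19.5%) and 5 (12.2%). Over all genes averaging 10 CPM or more these shares were 25.4% and 29.8%, and none was computed at the 1 CPM used for groups.

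Of 19 genes of the Notch pathway 4 were higher and 5 lower. The ligands Jag1 (2.06) and Jag2 (1.11) were higher. The targets differed among themselves: Hey1 stood at 8 and 34.6 CPM (2.11, 1.83 to 2.40) and Nrarp, a feedback inhibitor, at 10.9 and 33.6 (1.61, 1.36 to 1.87), whereas Dtx1, another target in T cells, was lower at 113 and 40.1 (-1.49, -1.63 to -1.36). Notch3, Notch4, Dll1 and Dll4, of vessels and stroma, made up the other lower members. Genes of extracellular ATP and adenosine had 3 of 18 higher, Entpd4b among them, and 2 lower. Entpd1 (CD39), which breaks down ATP, stood at 6.78 and 20.1 CPM (1.57, 1.25 to 1.90), Ada, which breaks down adenosine, at 8.32 and 19.1 (1.19), and Nt5e (CD73), which makes adenosine, at 154 and 214 (0.48). Art2b, a surface ADP-ribosyltransferase of T cells, was lower at 60 and 10.5 CPM (-2.51, -2.76 to -2.27). Of the S100, annexin and galectin genes 1 of 20 was higher, S100a4 at 4.99 and 14.4 CPM (1.52), and 2 lower, among them Anxa1 at 72.3 and 29.3 (-1.30, -1.47 to -1.15).

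Some extreme ratios came from rows that can share reads. Entpd4b, the highest by its counting bound, had 38 and 706 counts, while its near-identical copy Entpd4 had 920 and 706. Their sum of 958 and 1412 counts gave a log2 ratio of 0.56 (0.44 to 0.68), in place of 4.20 for Entpd4b alone. Zc3h11a had 2 rows, of which the smaller had 141 counts and 0, and their sum gave -0.41 (-0.50 to -0.32). Without these rows the highest genes by the counting bound began with Foxp3, Ifitm1, Tnfrsf4, Il17f and Brca1, and the lowest with Kdr, Fmo1, Dcn, C3 and Cfb. All of those 5 lower genes were at 0 after depletion. Kdr, the VEGF receptor of endothelium, was at least 131-fold lower and Fmo1, a flavin monooxygenase, at least 84.4-fold. Dcn, a matrix proteoglycan, was at least 56.5-fold lower, and the complement genes C3 and Cfb at least 47.9-fold and 46.5-fold. Fmo1, Dcn, C3, Cfb and Ifitm1 passed the 10 CPM minimum only through the LC libraries. Foxp3 and Il17f passed it only through the depleted libraries. In the isotype libraries of IPF-LC and LC, Foxp3 stood at 1.47 and 3.88 CPM and Il17f at 2.5 and 0.906 CPM. With isotype antibody, C3 stood at 9.21 CPM in IPF-LC and 94.2 CPM in LC, and Cfb at 8.96 and 31.5. Dcn stood at 10.9 and 37.2 CPM in those libraries, and Fmo1 at 16.3 and 29.6.

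Receptor segments could be read only thinly. Counts over Trbv segments, which encode the variable part of the beta chain, came to 3459 and 3367. Trbv19 took 9.57% of them with isotype antibody (exact 95% interval 8.61 to 10.6) and 13.3% after depletion (12.2 to 14.5), and Trbv12-1 took 9.22% and 6.89%. Trbv12-2, the most used with isotype antibody, took 12% and 13%. For Trav segments 1438 and 1406 counts were spread over 112 segments, with no segment above 5.41% in either library among the 5 most used. The immunoglobulin gene Igha had 0 and 49 counts and Jchain, the joining chain of secreted IgA and IgM, 0 and 39, both products of plasma cells, while Ighm had a ratio of -0.69. The spread of segment use between mice is not known here.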

How the data were processed

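RNA was sequenced from CD3+CD8+ cells sorted from mouse lung, 1 library per group. RNA was extracted with the RNeasy Micro kit, amplified with SMART-Seq v4 and made into libraries with NEBNext Ultra II, per the labels' protocols. Of tools, the submitters' processing notes list RSEM 1.3.3, STAR 2.7.11a, fastp 0.23.4 and MultiQC 1.25.2, with no role for any, and the build GRCm39. The annotation release is not given in the sources used here. The authors deposited expected counts per gene for 55401 genes, of which 5.49 to 5.89% were not whole; they were rounded to whole numbers. The deposited TPM values were used in an alternative. The FPKM values and gene lengths in the deposited tables were not used.

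Library sizes were scaled with TMM factors from edgeR 4.0.16 (1.01 and 0.961 in IPF-LC). Log2 ratios carry a prior count of 0.5, and intervals are exact conditional binomial ones at 95%. No p-value was computed, since each group has 1 library. The script was tested on simulated counts. DESeq2 1.42.0 size factors, other scalings, minimum levels and call rules were tried as alternatives. There were 47 gene lists with 944 symbols, 922 of them with a count; every list member could be named, those at least 2-fold apart first and then the defining members, with the 15 highest and 15 lowest genes by the counting bound nearest 0. The pair, the lists and the named genes were chosen with earlier results of these data known. The position of a library among the 4, the summing of Entpd4 with Entpd4b and the abundant genes of the closing section were added after the values had been seen. Some genes of the lists are counted in their groups and not reported here by name.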

Additional observations from a re-analysis of the deposited data

Results flagged for a closer look

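A group of genes was at least 2-fold higher after CD4 depletion in IPF-LC and at least 2-fold lower in LC, with 1 library a side. The difference between the pairs was not tested. For chemokine and cytokine genes, Ccl4 had log2 ratios of 1.13 in IPF-LC and -2.19 in LC, Ccr8 of 2.80 and -1.17, Il10ra of 1.78 and -1.41, Il12rb2 of 2.50 and -1.19, and Il1r2, a decoy receptor for IL-1 that neutrophils also carry, of 2.61 and -3.63. Tnfrsf9 had ratios of 1.85 and -1.26, Rgs16 of 2.65 and -1.05, and Entpd1 of 1.57 and -2.23. Ern1 had 1.53 and -4.82, where the depleted LC library held 8 counts. Osgin1, an oxidative stress gene, had 2.88 and -4.33, with 25 counts in that library. Entpd4b had 4.20 and -2.59, and summed with its copy Entpd4 it had 0.56 and 0.08. The macrophage and monocyte marker sum was 1932.5 CPM in the depleted IPF-LC library and 385.63 CPM in the depleted LC library, and its part in these differences was not tested.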

How the results depend on the processing

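No paired analysis was possible because each group has 1 library. The counts of genes at least 2-fold higher and lower (344 and 508) depended on the minimum level and the call rule: 1081 and 1665 for genes averaging 1 CPM or more, 118 and 66 for those at 50 CPM or more, 3085 and 3595 with no minimum, 207 and 325 where the whole counting interval lay beyond 2-fold, 1097 and 1262 at 1.5-fold, and 39 and 121 at 4-fold. With the 10 CPM minimum averaged over the 2 IPF-LC libraries alone, the counts were 329 and 446. More genes were lower than higher except at 50 CPM. With DESeq2 size factors they were 349 and 505, with total counts 275 and 601, with libraries scaled to the T cell receptor complex genes 393 and 469, with a prior count of 5 333 and 497, and with deposited TPM 325 and 528. Single genes were checked for 268 list members and extreme genes, all averaging 10 CPM or more. Of these 268 genes 175 were at least 2-fold apart, and 158 to 175 of the 175 stayed so under those 5 settings, with no change of sign. Genes named above that averaged less, such as Itgb8, Lrrc32, Lag3 and Tox2, were not in that check. Nor were Odc1 and the other abundant genes that belong to no group. With TPM the median of the regulatory T cell group was 0.96, of the endothelial group -1.85 and of the fibroblast group -1.77. The lung epithelial median was 0.43 for the 2 members averaging 10 CPM or more, opposite in sign to -2.05, and the cause was not tested. At that level the medians of the gamma delta (0.11), mast cell and basophil (0.21, 1 member) and Notch (0.05) groups changed sign too. Those of the immediate early group (0.04, scaled to the receptor complex) and the T cell receptor signalling group (-0.00, total counts) did so near 0. So did those of the CD8 T cell group (-0.05 with total counts, -0.02 with TPM) and the cytokine receptors (0.04 scaled to the receptor complex, 0.11 with TPM). Scaled to the receptor complex, the cytotoxic granule and oxidative phosphorylation medians were 0.01 each, against -0.04 and -0.03. Depth limits genes near or under the floor of 3 counts in at least 1 library, such as Cd4, Fancd2 and Il22. Intervals leave out variation between mice.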

Other observations

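Genes at 100 CPM or more give the most precise ratios, and 50 of them were at least 2-fold higher and 28 lower, including members of the gene groups. Those named here belong to no group and were chosen after their values had been seen. Odc1, the rate-limiting enzyme of polyamine synthesis, stood at 520 CPM with isotype antibody and 1704 CPM after depletion in IPF-LC (log2 ratio 1.71, 1.68 to 1.75), and at 654 and 1126 CPM in LC (0.78). Rora, a nuclear receptor of type 17 and innate lymphoid cells, stood at 96.8 and 255 CPM (1.40, 1.31 to 1.49), with a ratio of 1.22 in LC. Lmnb1, a lamin of the nuclear envelope, stood at 63.8 and 211 CPM (1.73), Kdm2b, a histone demethylase, at 64 and 277 (2.12, 2.02 to 2.22) and Rbm3, an RNA-binding protein of the cold response, at 331 and 742 (1.17). Arap2 had a ratio of 1.80, Ppp1r16b one of 1.48 and Epb41 one of 1.38.

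On the lower side, Txnip, an inhibitor of glucose uptake and of thioredoxin, stood at 468 and 219 CPM (-1.09, -1.15 to -1.03). Gimap1, a GTPase that naive T cells need to survive, stood at 207 and 102 CPM (-1.02, -1.11 to -0.93), Adcy7, an adenylate cyclase, at 322 and 154 (-1.06) and Otulinl at 273 and 122 (-1.16). In LC their ratios were -0.31 for Txnip, 0.12 for Gimap1, -0.26 for Adcy7 and -0.08 for Otulinl. Ctss and Apoe, both abundant in macrophages, had ratios of -1.29 and -1.75, and of -1.71 and -5.00 in LC, where the macrophage and monocyte sum was 5462.3 and 385.63 CPM.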
